A study of Arabidopsis thaliana with 6 samples.

Results

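The aliphatic glucosinolate pathway of Arabidopsis thaliana was followed through 33 genes in leaves of the pub2pub4 double mutant and of wild type. The genes were taken by their AGI locus codes from the 33602 rows of the deposited table, and all 33 were found, 1 row each. They comprise 3 MYB regulators, 9 genes of methionine chain elongation, 10 of the core structure, 5 S-oxygenases, 2 AOP genes, 2 transporters and 2 kinases that supply the sulfate donor PAPS. The pub2pub4 plants carry mutations in PUB2 and PUB4, which encode U-box ubiquitin ligases, and the comparison asks how leaf transcripts differ between this mutant and wild type. Plants of both groups were 25 days old and labelled mock, with 3 messenger RNA libraries each. The sources used here do not state the mutant alleles, the accession or what the mock treatment was. They also do not say that replicates came from separate plants, so a p-value reflects the spread among these libraries, and that spread may be technical.

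Glucosinolates are sulfur-rich thioglucosides that are stored in the leaf and release toxic products when a myrosinase meets them in damaged tissue. The aliphatic class starts from methionine, whose side chain is lengthened in a cycle of deamination, condensation, isomerisation and oxidative decarboxylation that is related to leucine synthesis. Cytochromes P450, conjugation, cleavage, glucosylation and sulfation then build the core, and S-oxygenases and AOP enzymes modify the side chain. MYB28, MYB29 and MYB76 are R2R3-type transcription factors that activate the genes of the pathway, together with basic helix-loop-helix MYC factors.

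Both targeted transcripts were low in the mutant. PUB2 was at 0.382, 0.543 and 0.588 CPM (expected counts scaled to library size by the TMM method) in pub2pub4 libraries 1 to 3 and at 9.40, 10.3 and 7.48 CPM in wild type 1 to 3. PUB4 was at 2.39, 3.45 and 3.82 CPM in pub2pub4 and at 20.4, 23.6 and 19.0 CPM in wild type. Each pub2pub4 library held 20572341 to 20732799 expected counts, and each wild-type library 20506882 to 20595904. The leaf label was checked against mesophyll markers, among which the most abundant, RBCS1A, a Rubisco small subunit gene, was at 12119 to 14215 CPM in pub2pub4 and 12573 to 13688 CPM in wild type. Root and flower markers were at or near 0 (the root gene RHD6 had no count), with summed levels of at most 0.444 and 1.43 CPM in pub2pub4 and 1.08 and 3.37 CPM in wild type.

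The upstream sequences are shown first because MYB factors of this type bind elements with the core ACCNACC. In the 250 bases before the annotated gene start, 7 of the 33 genes held ACCNACC on either strand, a share of 21.2%, against 6.1% of 27443 protein-coding genes. The MYC-bound G-box CACGTG stood in 3 of the 33 (IIL1, CYP83A1 and SUR1), or 9.09%, against 6.49%. IIL1 and CYP83A1 held both, at places that did not overlap. A match describes letters only. The stretches come from RefSeq's TAIR10.1 assembly and annotation and are written on the gene's strand from 5′ to 3′, with the match in capitals and up to 20 bases on each side.
BAT5, chr4:7210767-7210806, plus strand: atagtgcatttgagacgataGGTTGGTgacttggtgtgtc
IIL1, chr4:7807985-7808019, minus strand: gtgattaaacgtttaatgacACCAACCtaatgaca
IPMI2, chr2:17920531-17920577, plus strand: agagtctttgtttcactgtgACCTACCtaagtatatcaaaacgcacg
IPMI1, chr3:21798411-21798457, minus strand: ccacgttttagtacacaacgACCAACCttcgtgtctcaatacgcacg
CYP79F2, chr1:5604920-5604966, plus strand: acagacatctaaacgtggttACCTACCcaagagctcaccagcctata
CYP83A1, chr4:7992474-7992520, minus strand: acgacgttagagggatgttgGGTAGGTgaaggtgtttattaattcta
SOT17, chr1:6398493-6398530, plus strand: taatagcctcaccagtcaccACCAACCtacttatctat

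The match lay 8 to 127 bases before the gene start, closest in IIL1 and farthest in IPMI1. In BAT5 and CYP83A1 it was on the opposite strand. The windows of MYB28, MYB29 and MYB76 held neither motif. IPMI1 and IPMI2, which encode small subunits of the isomerase in chain elongation, also shared a longer block around the match. A local alignment of their windows paired 112 bases, of which 80 (71.4%) were identical, with a score of 73, where 9 other paralog pairs gave scores of 25 to 40. The aligned block of each is shown with the motif in capitals, and these 2 genes were chosen for display after the likeness was seen.
IPMI1, chr3:21798344-21798462, minus strand: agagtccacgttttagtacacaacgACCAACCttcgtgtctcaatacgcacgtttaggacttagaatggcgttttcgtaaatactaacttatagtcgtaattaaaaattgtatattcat
IPMI2, chr2:17920531-17920646, plus strand: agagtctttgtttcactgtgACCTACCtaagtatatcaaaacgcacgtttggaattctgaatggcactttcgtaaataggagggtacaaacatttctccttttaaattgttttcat

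In pub2pub4 leaves, genes of chain elongation, the core pathway, S-oxygenation and PAPS supply rose, by up to 1.89-fold, together with the regulator MYB29, while no transporter or AOP gene was called. Of the 33 genes, 32 had enough counts to be tested, and AOP3 had none. By edgeR's quasi-likelihood test with Benjamini-Hochberg adjustment over all 19019 genes tested, 15 of the 32 rose at an adjusted p under 0.05, against 2.49% of all tested genes called higher. None fell, against 1.97% of all tested genes called lower and 4.46% called in either direction. Without adjustment, edgeR put 1 member lower at p under 0.05. Neither DESeq2 nor limma-voom called any lower, against 704 of 20163 and 314 of 19019 genes in turn. DESeq2 called 21 members higher, against 3.72% of the genes it tested, limma-voom called 15, against 2.17%, and the fit with the replicate number as a block called 15, against 2.57%. Of the 32 log2 fold changes (pub2pub4 over wild type), 30 were positive, with a median of 0.55, where the median of all tested genes was 0.01. In 25 of the 32 every pub2pub4 library was above every wild-type library, as in 13.4% of all tested genes, and in 0 every one was below, as in 12.7% of all tested genes. In bulk leaf RNA, more cells that express a gene and more RNA per cell cannot be told apart.

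The calls depended on which library was left out. With any of pub2pub4 2, wild type 1 or wild type 2 left out, 0 members were called, and over all genes 91, 132 and 86 were called without these libraries in turn, against 848 with all of them. Without wild type 3, 7 members were called higher, without pub2pub4 1 there were 12, and without pub2pub4 3 there were 22. Over all genes, 328 of 19216, 332 of 19151 and 756 of 19226 were called higher in turn, against 474 of 19019 with all libraries. None of the 15 genes was called in each of these 6 fits. The members' median log2 fold change was 0.41 to 0.62 over the 6 fits, lowest without pub2pub4 1.

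**Figure D1:**
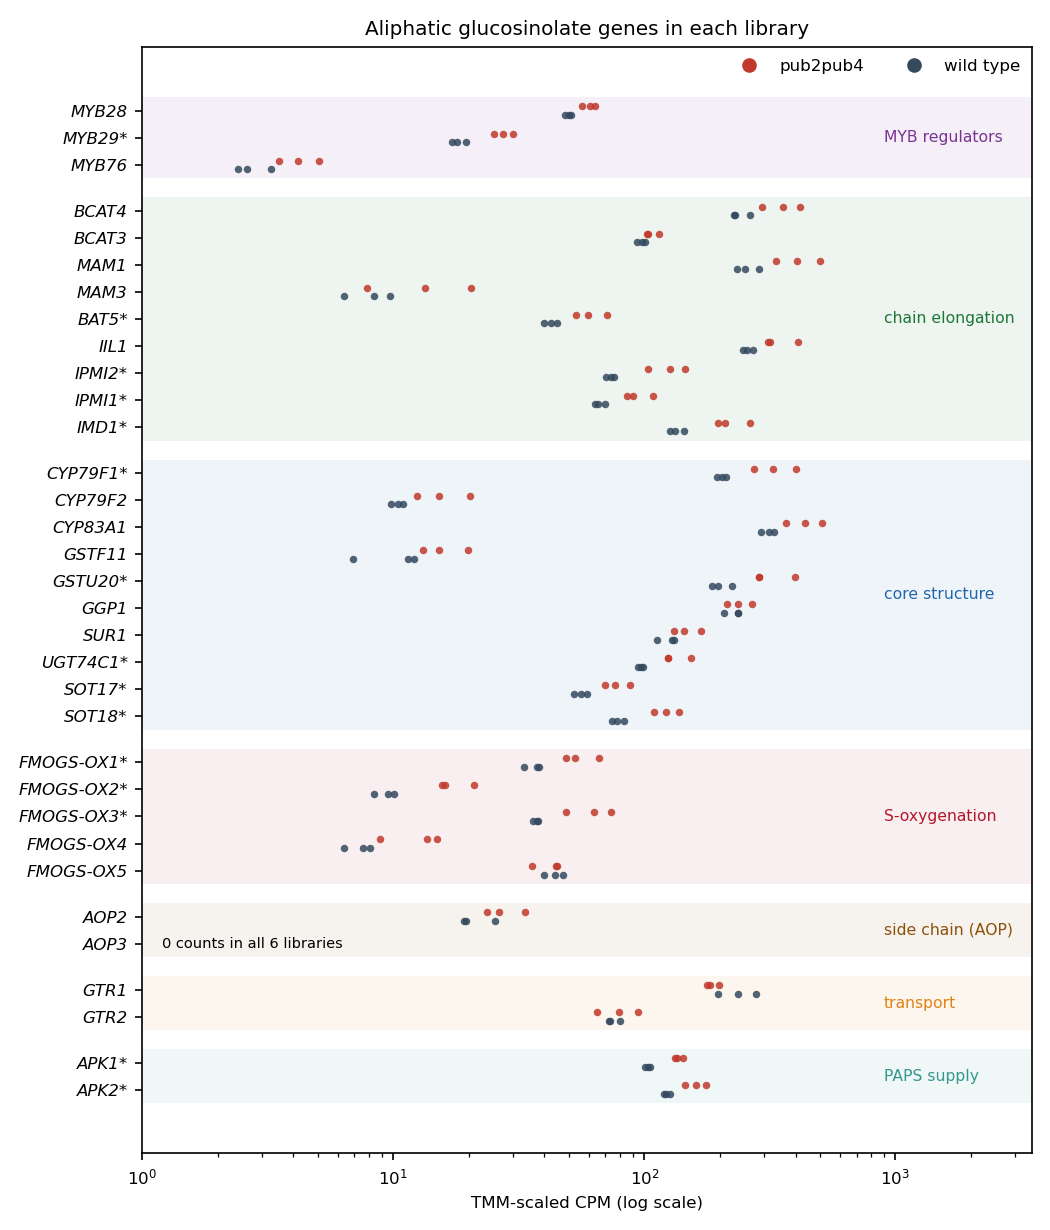
TMM-scaled CPM (log axis) of the 33 genes in each of 3 pub2pub4 libraries (red, upper row of each gene) and 3 wild-type libraries (dark, lower row), grouped by pathway step. An asterisk marks the 15 genes called higher, and the 3 pub2pub4 points lie to the right of the 3 wild-type points for 25 genes.

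Among the regulators MYB29 (AT5G07690) rose, and MYB28 (AT5G61420) and MYB76 (AT5G07700) did not pass the test, although no library of the mutant overlapped wild type for any of the 3. MYB29 was at 29.9, 27.4 and 25.1 CPM in pub2pub4 1 to 3 and 17.1, 18.0 and 19.4 CPM in wild type 1 to 3. Its log2 fold change was 0.60 ± 0.09 (SE; edgeR adjusted p 0.0159, and a call in 3 of the 6 leave-one-out fits). MYB28 was at 60.7, 63.8 and 56.3 CPM in pub2pub4 and 51.0, 48.3 and 50.3 CPM in wild type. These libraries were close within each group, and the log2 fold change was 0.27 ± 0.07 (SE; edgeR adjusted p 0.0665). MYB76 was at 5.06, 3.50 and 4.17 CPM in pub2pub4 and 2.41, 2.61 and 3.26 CPM in wild type, with a log2 fold change of 0.62 ± 0.20 (SE; edgeR adjusted p 0.133). Per kilobase of transcript the order of levels was the same in both groups. MYB28 stood at 39.3 CPM per kilobase in pub2pub4 and 32.6 in wild type, MYB29 at 17.2 and 11.4, and MYB76 at 4.17 and 2.71. MYB29 and MYB76 are neighbours on chromosome 5 (2446669 to 2448584 and 2450027 to 2451807, plus strand, TAIR10.1), and MYB28 lies on the same chromosome (24689069 to 24691187, minus strand). The longest stretch of identical coding sequence between any pair of the 3 was 32 bases, between MYB28 and MYB76.

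Chain elongation had 4 of its 9 genes called higher and 5 not called, all 9 log2 fold changes were positive, and the median was 0.57. IPMI2 (AT2G43100) was at 145, 126 and 103 CPM in pub2pub4 1 to 3 and 70.2, 73.7 and 75.3 CPM in wild type 1 to 3, a log2 fold change of 0.77 ± 0.12 (SE; edgeR adjusted p 0.0166). Its partner with the related upstream block, IPMI1 (AT3G58990), was at 108, 90.1 and 85.3 CPM in pub2pub4 and 65.1, 63.6 and 69.5 CPM in wild type (log2 0.52 ± 0.10 SE; edgeR adjusted p 0.0276). Both genes were highest in pub2pub4 1 and lowest in wild type, with no overlap of the groups. IMD1 (AT5G14200), the isopropylmalate dehydrogenase gene of the last step of the cycle, was at 265, 209 and 196 CPM in pub2pub4 and 132, 127 and 144 CPM in wild type (log2 0.73 ± 0.12 SE; edgeR adjusted p 0.0187). BAT5 (AT4G12030), which encodes the carrier that moves 2-oxo acids across the plastid envelope, was at 70.8, 59.7 and 53.3 CPM in pub2pub4 and 39.9, 42.5 and 45.1 CPM in wild type (log2 0.53 ± 0.11 SE; edgeR adjusted p 0.0350). The spread was larger in the mutant than in wild type for each of these 4 genes. IMD1 overlaps a gene on the opposite strand by 25 bases, at 30.4 CPM in pub2pub4 and 37.6 CPM in wild type, and BCAT4 overlaps one by 307 bases that had too few counts to be tested.

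The entry enzymes of the cycle lay close to the threshold without passing it. BCAT4 (AT3G19710), which deaminates methionine and had the highest level per kilobase of the step, was at 418, 355 and 295 CPM in pub2pub4 and 229, 228 and 262 CPM in wild type. The log2 fold change of BCAT4 came to 0.57 ± 0.13 (SE; edgeR adjusted p 0.0503). MAM1 (AT5G23010), for the synthase that condenses the 2-oxo acid with acetyl-CoA, averaged 413 ± 84.0 CPM in pub2pub4 and 257 ± 26.7 CPM in wild type (SD, n = 3 each; edgeR adjusted p 0.0556). Neither gene's groups overlapped. IIL1 (AT4G13430), the large isomerase subunit, had a log2 fold change of 0.42 (edgeR adjusted p 0.0717). MAM3 (AT5G23020), the paralog next to MAM1 that makes longer chains as well, was low, at 13.9 ± 6.29 CPM in pub2pub4 and 8.16 ± 1.70 CPM in wild type (SD, n = 3 each), and its groups overlapped. BCAT3 (AT3G49680), a plastid aminotransferase shared with branched-chain amino acid synthesis, had the smallest change of the step, 0.13, with a 95% interval of -0.02 to 0.29.

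The core pathway had 5 of its 10 genes called higher and 5 not called, all 10 log2 fold changes were positive, and the median was 0.56. CYP79F1 (AT1G16410), the cytochrome P450 that turns elongated methionine into aldoximes, was at 402, 326 and 274 CPM in pub2pub4 1 to 3 and 212, 195 and 204 CPM in wild type 1 to 3. The groups did not overlap, and the fold change was 1.64 (log2 0.72 ± 0.13 SE; edgeR adjusted p 0.0297). Its neighbour CYP79F2 (AT1G16400), which prefers long-chain substrates, was at 15.9 ± 3.95 CPM in pub2pub4 and 10.4 ± 0.534 CPM in wild type (SD, n = 3 each; log2 0.62, edgeR adjusted p 0.0877). The coding sequences of the pair were 91.9% identical and shared 1 identical stretch of 100 bases, so their counts are uncertain to the extent that reads were split between them. CYP83A1 (AT4G13770), the next P450, had one of the highest levels of the pathway, 438 ± 70.0 CPM in pub2pub4 and 311 ± 17.8 CPM in wild type (SD, n = 3 each), and did not pass the test (log2 0.49, edgeR adjusted p 0.0543).

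Among the conjugating and cleaving enzymes, GSTU20 (AT1G78370) rose. This glutathione S-transferase gene, which had the highest level per kilobase of all 33 genes, was at 398, 287 and 286 CPM in pub2pub4 and 197, 186 and 223 CPM in wild type (log2 0.68 ± 0.14 SE; edgeR adjusted p 0.0451). The call was lost when libraries were scaled by their totals alone (edgeR adjusted p 0.065). GSTF11 (AT3G03190), the other transferase gene of the list, averaged 16.0 ± 3.40 CPM in pub2pub4 and 10.1 ± 2.80 CPM in wild type (SD, n = 3 each; edgeR adjusted p 0.194). It lies within a gene on the opposite strand that was at 0.488 CPM in pub2pub4 and 0.370 CPM in wild type. GGP1 (AT4G30530), a gamma-glutamyl peptidase gene, and SUR1 (AT2G20610), the C-S lyase gene, also act in the synthesis of indole compounds, and their groups overlapped. The log2 fold change was 0.08 for GGP1 (95% interval -0.14 to 0.30) and 0.25 for SUR1 (0.02 to 0.49). These intervals lie below the estimate of 0.68 for GSTU20, but the difference between these genes was not tested.

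The glucosyltransferase gene and both sulfotransferase genes rose. UGT74C1 (AT2G31790), a glucosyltransferase gene, was at 154, 124 and 124 CPM in pub2pub4 and 98.9, 96.9 and 94.7 CPM in wild type (log2 0.47 ± 0.09 SE; edgeR adjusted p 0.0331). It overlaps genes on the opposite strand by up to 265 bases, and the more abundant partner was at 59.2 CPM in pub2pub4 and 78.3 CPM in wild type, and without a stated strand setting the reads of the overlap cannot be told apart. The sulfotransferase gene SOT18 (AT1G74090) was at 137, 122 and 110 CPM in pub2pub4 and 77.5, 82.9 and 74.1 CPM in wild type (log2 0.65 ± 0.09 SE; edgeR adjusted p 0.0129). It had the smallest adjusted p of the 33. SOT17 (AT1G18590), with the ACCAACC element shown above, was at 87.6, 76.3 and 69.5 CPM in pub2pub4 and 52.5, 59.3 and 56.1 CPM in wild type (log2 0.47 ± 0.09 SE; edgeR adjusted p 0.0338). The window of SOT18 held neither motif, and IIL1, CYP79F2 and CYP83A1, which hold ACCNACC, were not called by edgeR. A link between motif and change was not tested. No library of the mutant overlapped wild type for UGT74C1, SOT18 or SOT17.

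**Figure D2:**
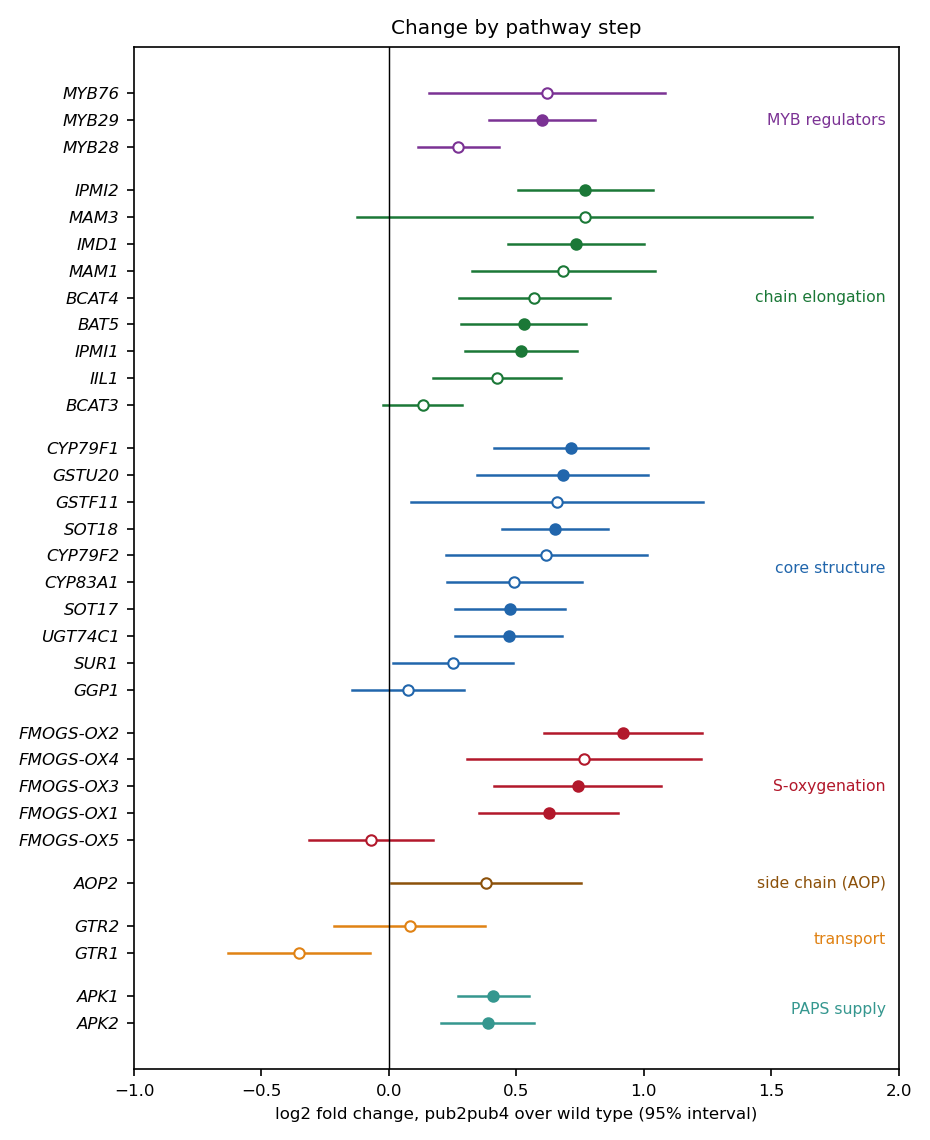
Log2 fold change of pub2pub4 over wild type (points) with its 95% interval from the edgeR fit (lines) for the 32 tested genes, by pathway step. Filled points are the 15 genes called, whose estimates run from 0.39 for APK2 to 0.92 for FMOGS-OX2, and GTR1 and FMOGS-OX5 are the 2 genes with a negative estimate.

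Of the 5 S-oxygenase genes, whose flavin monooxygenases turn methylthioalkyl into methylsulfinylalkyl glucosinolates, 3 rose and 2 were not called. FMOGS-OX2 (AT1G62540) was at 20.9, 15.7 and 16.0 CPM in pub2pub4 1 to 3 and 10.0, 9.50 and 8.34 CPM in wild type 1 to 3. Its fold change of 1.89 was the largest of the 32 (log2 0.92 ± 0.14 SE; edgeR adjusted p 0.0150). FMOGS-OX3 (AT1G62560) was at 73.8, 63.3 and 48.8 CPM in pub2pub4 and 37.7, 36.1 and 37.4 CPM in wild type (log2 0.74 ± 0.14 SE; edgeR adjusted p 0.0338). The wild-type libraries of this gene were nearly equal, while the mutant libraries were spread. FMOGS-OX1 (AT1G65860) was at 66.1, 53.0 and 48.7 CPM in pub2pub4 and 33.3, 37.4 and 38.0 CPM in wild type (log2 0.63 ± 0.12 SE; edgeR adjusted p 0.0299). FMOGS-OX4 (AT1G62570), at 12.4 ± 3.17 CPM in pub2pub4 and 7.32 ± 0.877 CPM in wild type (SD, n = 3 each), had a log2 fold change of 0.77 and an edgeR adjusted p of 0.0767. FMOGS-OX5 (AT1G12140), whose enzyme acts on the longest chains, overlapped between the groups at 41.7 ± 5.13 CPM in pub2pub4 and 43.8 ± 3.75 CPM in wild type (SD, n = 3 each). Its log2 fold change was -0.07, with a 95% interval of -0.31 to 0.17. FMOGS-OX5 overlaps 3 annotated genes by up to 1066 bases, with AT1G04933 on the same strand, and none of them was among the tested genes. FMOGS-OX2, FMOGS-OX3 and FMOGS-OX4 lie in 1 cluster on chromosome 1 (23151634 to 23172175, plus strand, TAIR10.1), and the longest identical coding stretches among the 5 genes were 53 bases for FMOGS-OX1 and FMOGS-OX2 and 49 bases for FMOGS-OX2 and FMOGS-OX3.

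AOP2 (AT4G03060) and AOP3 (AT4G03050) encode dioxygenases that convert the oxidised side chain to alkenyl or hydroxyalkyl forms, depending on the accession. AOP2, which the RefSeq annotation of the Columbia genome lists as a transcribed pseudogene, was at 33.4, 23.6 and 26.4 CPM in pub2pub4 and 19.2, 19.5 and 25.4 CPM in wild type. Wild type 3 lay above pub2pub4 2, and the log2 fold change was 0.38 (95% interval 0.01 to 0.75; edgeR adjusted p 0.245). AOP3 had 0 counts in all 6 libraries. A count of 0 allows up to 3 counts, or 0.143 to 0.148 CPM per pub2pub4 library and 0.144 to 0.148 CPM per wild-type library, for counting error only.

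Neither transporter gene was called, and the groups overlapped for both. GTR1 (AT3G47960), which imports glucosinolates into cells and loads them into the phloem, was at 178, 182 and 198 CPM in pub2pub4 and 197, 236 and 279 CPM in wild type. Its log2 fold change was -0.35 (95% interval -0.63 to -0.07; edgeR adjusted p 0.155), and pub2pub4 3 lay just above wild type 1. GTR1 overlaps 2 genes on the opposite strand by up to 324 bases, the more abundant at 2.62 CPM in pub2pub4 and 1.99 CPM in wild type. GTR2 (AT5G62680), the related importer, was at 79.3 ± 14.5 CPM in pub2pub4 and 74.9 ± 4.12 CPM in wild type (SD, n = 3 each; log2 0.08, 95% interval -0.21 to 0.38). GTR2 overlaps a neighbour on the opposite strand by 73 bases, and that neighbour was at 202 CPM in pub2pub4 and 164 CPM in wild type.

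Both kinase genes of PAPS supply rose, with small changes and a narrow spread. APK1 (AT2G14750) was at 143, 135 and 132 CPM in pub2pub4 and 103, 101 and 105 CPM in wild type (log2 0.41 ± 0.06 SE; edgeR adjusted p 0.0150). APK2 (AT4G39940) was at 176, 161 and 145 CPM in pub2pub4 and 122, 127 and 120 CPM in wild type (log2 0.39 ± 0.08 SE; edgeR adjusted p 0.0357). Their enzymes phosphorylate adenosine phosphosulfate and so make the donor that SOT17 and SOT18 use. For neither gene did the groups overlap.

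The 3 mutant libraries differed from each other in the same way for most of the pathway. Among pub2pub4 libraries, pub2pub4 1 was the highest for 30 of the 32 genes (93.8%), against 32.1% of all tested genes. Library pub2pub4 3 was the lowest for 28 of the 32 (87.5%), against 35.9% of all tested genes. In wild type the highest library was wild type 3 for 17 genes, wild type 1 for 11 and wild type 2 for 4. Summed over the 33 genes, the level was 5153, 4329 and 3899 CPM in pub2pub4 1 to 3 and 3208, 3186 and 3383 CPM in wild type 1 to 3. The sum took 0.520%, 0.427% and 0.385% of the expected counts in pub2pub4 and 0.323%, 0.315% and 0.344% in wild type. The lowest mutant library was above the highest wild-type library in the sum. Sums of some related genes, listed below, also fell from pub2pub4 1 to 3. They were 2707, 2495 and 2261 CPM for sulfate uptake and assimilation and 2134, 1833 and 1617.5 CPM for the indole list. Other sums rose from pub2pub4 1 to 3, at 441, 470 and 510 CPM for upstream regulators and 10931, 11619 and 16580 CPM for breakdown genes. Abundant genes weighed most in these sums. In the indole list GSTF9 was at 1068, 794 and 659 CPM in pub2pub4 1 to 3. MYC2 made up most of the regulator sum, at 286, 334 and 377 CPM. MYC3 (64.6, 50.2 and 53.9 CPM) and MYC4 (44.1, 35.9 and 32.7 CPM) did not rise with it. TGG1 and TGG2 made up most of the breakdown sum, in which NSP1 fell (321, 215 and 172 CPM). Without pub2pub4 1 the log2 fold change of CYP79F1 was 0.56, and 28 of the 32 fold changes were positive. The log2 levels of CYP79F1 over the 6 libraries correlated with those of FMOGS-OX3 at 0.995, of FMOGS-OX5 at 0.0455 and of GTR1 at -0.783, as a description in which the libraries share the 2 genotypes.

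**Figure D3:**
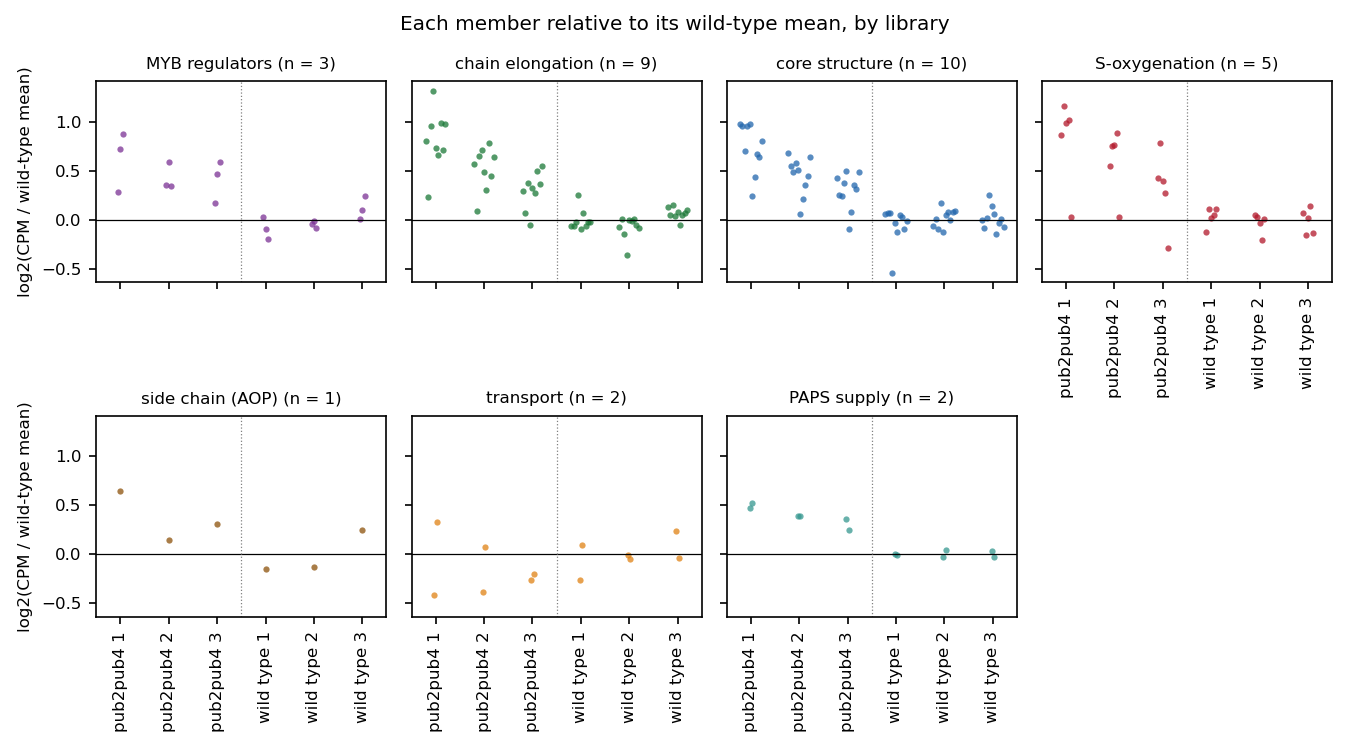
Log2 of the CPM in each library over the gene's wild-type mean, 1 point per gene and library, in 1 panel per pathway step, with pub2pub4 libraries left of the dotted line and wild-type libraries right of it. In chain elongation, the core and S-oxygenation the points of pub2pub4 1 reach the highest values and those of pub2pub4 3 come closest to wild type.

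Ratios of 2 genes within a library do not depend on the scaling between libraries. The 12 ratios were chosen after the values were seen, were taken per kilobase, and set pathway genes beside counterparts in leucine or indole glucosinolate synthesis, or beside each other. With 3 libraries against 3, an exact two-sided permutation test cannot give a p under 0.1, and every ratio whose groups are apart gets that value. Adjusted over the 12 ratios the smallest value was 0.12. After such a choice these p-values and the number of ratios apart are descriptive only. The share apart among other gene pairs was not computed. The ratio of MAM1 to IPMS1, a leucine counterpart, was 5.69, 5.29 and 4.45 in pub2pub4 and 3.35, 2.56 and 3.89 in wild type. IPMI2 over IPMI SSU1, the subunit of leucine synthesis, was 1.10, 1.05 and 0.937 in pub2pub4 and 0.527, 0.604 and 0.655 in wild type. IMD1 over IMD2 was 7.99, 6.06 and 5.07 in pub2pub4 and 3.66, 2.99 and 3.42 in wild type. The denominators IPMS1 and IMD2 had log2 fold changes of -0.0003 and -0.18. Their paralogs IPMS2 and IMD3, with 0.11 and 0.12, were not used in a ratio. In these 3 ratios the aliphatic gene was higher relative to the leucine gene used in every mutant library (exact permutation p 0.1 each).

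The same held against the indole branch. The ratio of CYP83A1 to CYP83B1 was 1.29 ± 0.165 in pub2pub4 and 0.791 ± 0.172 in wild type (SD, n = 3 each). For SOT18 over SOT16 it was 1.01 ± 0.119 in pub2pub4 and 0.669 ± 0.0178 in wild type, and for GSTU20 over GSTF9 it was 0.421 ± 0.0423 in pub2pub4 and 0.274 ± 0.0674 in wild type (SD, n = 3 each). The groups of these 3 ratios did not overlap (exact permutation p 0.1 each). Their denominators CYP83B1, SOT16 and GSTF9 had log2 fold changes of -0.25, 0.06 and 0.05, and none was called. The first ratio thus also holds the lower estimate of CYP83B1. UGT74C1 over UGT74B1, MYB29 over MYB28 and FMOGS-OX3 over FMOGS-OX5 were also higher in every mutant library, the last at 1.69 ± 0.172 in pub2pub4 and 0.971 ± 0.0872 in wild type (SD, n = 3 each). GTR1 over CYP79F1 was lower in every mutant library, at 0.402, 0.506 and 0.653 in pub2pub4 and 0.844, 1.10 and 1.24 in wild type. The ratios of CYP79F1 to CYP79F2 and of MAM1 to MAM3 overlapped between the groups (exact permutation p 0.2 and 1).

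**Figure D4:**
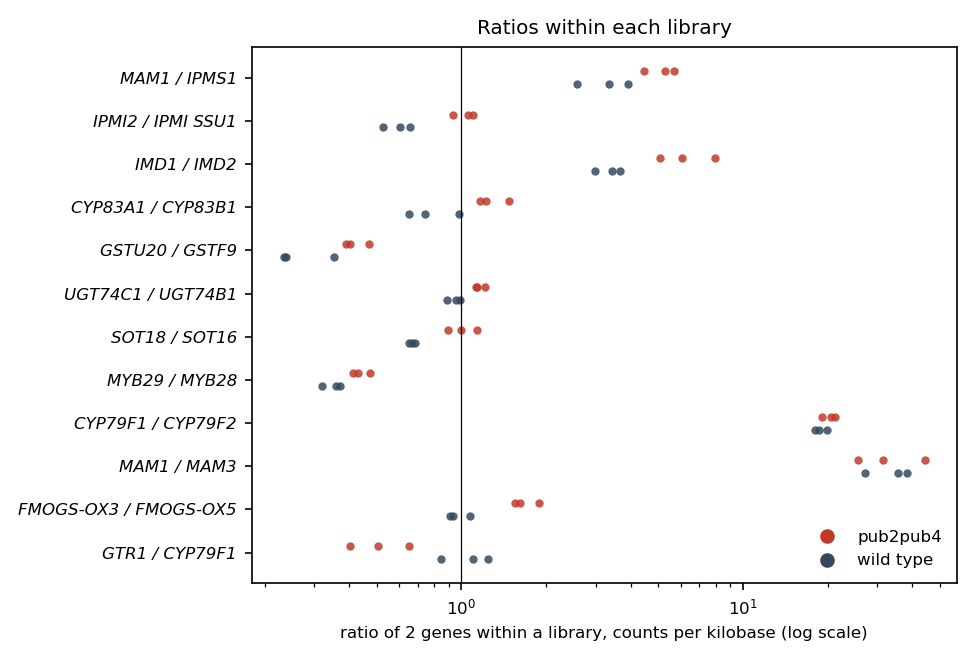
Ratio of 2 genes within each library, per kilobase, on a log axis, for pub2pub4 libraries (red, upper row) and wild-type libraries (dark, lower row). The groups are apart for 10 of the 12 ratios, which were chosen after the values were seen, and only GTR1 over CYP79F1 is lower in pub2pub4 among them.

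Related genes outside the 33 were counted in lists. Sulfate uptake and assimilation had 3 of 14 tested genes higher and 0 lower, with a median log2 fold change of 0.32. They were SULTR2;1, a sulfate transporter gene of the vasculature, at 150, 131 and 151 CPM in pub2pub4 and 90.4, 83.6 and 82.8 CPM in wild type (log2 0.75 ± 0.08 SE; edgeR adjusted p 0.00616), APR1, an adenosine phosphosulfate reductase gene (log2 0.66, edgeR adjusted p 0.0219), and ATPS1, an ATP sulfurylase gene (log2 0.40, edgeR adjusted p 0.0399). SULTR2;1 was called in all 6 leave-one-out fits, APR1 in 3 and ATPS1 in 1. In this list 10 genes were higher at an unadjusted edgeR p under 0.05, and DESeq2 called 6 higher and limma-voom 3. For counts at an unadjusted p, of members, lists and markers alike, the share of all tested genes was not counted. Such counts therefore have no background here. The lowest mutant library of SULTR2;1 was pub2pub4 2. None of the 5 leucine counterparts was called, with a median log2 fold change of 0.00, and neither an unadjusted p under 0.05 by edgeR nor a call by DESeq2 or limma-voom was found among them. Of 9 tested genes of the indole core and its regulators edgeR called 0, with a median of -0.07. In that list 4 log2 fold changes were positive and 5 negative, and 3 genes had a lower level at an unadjusted edgeR p under 0.05. They were CYP81F2 (log2 -1.34, edgeR adjusted p 0.201), MYB51 (log2 -0.98, edgeR adjusted p 0.123) and GSTF10 (log2 -0.28, edgeR adjusted p 0.0833). For each of them the groups did not overlap. DESeq2 called 3 of the list lower, against 704 of the 20163 genes it tested. From limma-voom came 0 lower calls in the list, against 314 of 19019 genes.

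Of 7 upstream regulators, the 3 MYC genes among them, edgeR called 0, with 1 higher at an unadjusted p under 0.05, and DESeq2 and limma-voom called 0. MYC2 had a log2 fold change of -0.04, MYC3 of -0.04 and MYC4 of 0.13. Of 6 tested further aliphatic genes edgeR and limma-voom called 0, 1 was higher at an unadjusted p under 0.05, and DESeq2 called 1. That list's extreme, GSL-OH, whose dioxygenase hydroxylates alkenyl glucosinolates, was at 816, 621 and 424 CPM in pub2pub4 and 299, 309 and 345 CPM in wild type (log2 0.96 ± 0.23 SE; edgeR adjusted p 0.0838), and it was again highest in pub2pub4 1 and lowest among mutant libraries in pub2pub4 3. Of 5 methionine synthesis and turnover genes edgeR and limma-voom called 0, with a median of 0.10, 2 were higher at an unadjusted p under 0.05, and DESeq2 called 1. Among 6 breakdown genes NSP5, a nitrile-specifier gene, rose, at 168, 151 and 128 CPM in pub2pub4 and 83.8, 89.4 and 102 CPM in wild type (log2 0.70 ± 0.11 SE; edgeR adjusted p 0.0203). The call of NSP5 was made in 3 of the 6 leave-one-out fits. ESP, an epithiospecifier gene, had a larger estimate without passing the test, at 144, 136 and 145 CPM in pub2pub4 and 69.5, 68.2 and 106 CPM in wild type, with no overlap (log2 0.80 ± 0.17 SE; edgeR adjusted p 0.0565). Of the 6 breakdown genes, 2 were higher at an unadjusted edgeR p under 0.05, and DESeq2 and limma-voom each called 2 higher. The myrosinase genes TGG1 and TGG2 had log2 fold changes of 0.32 and 0.36 with overlapping groups.

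**Figure D5:**
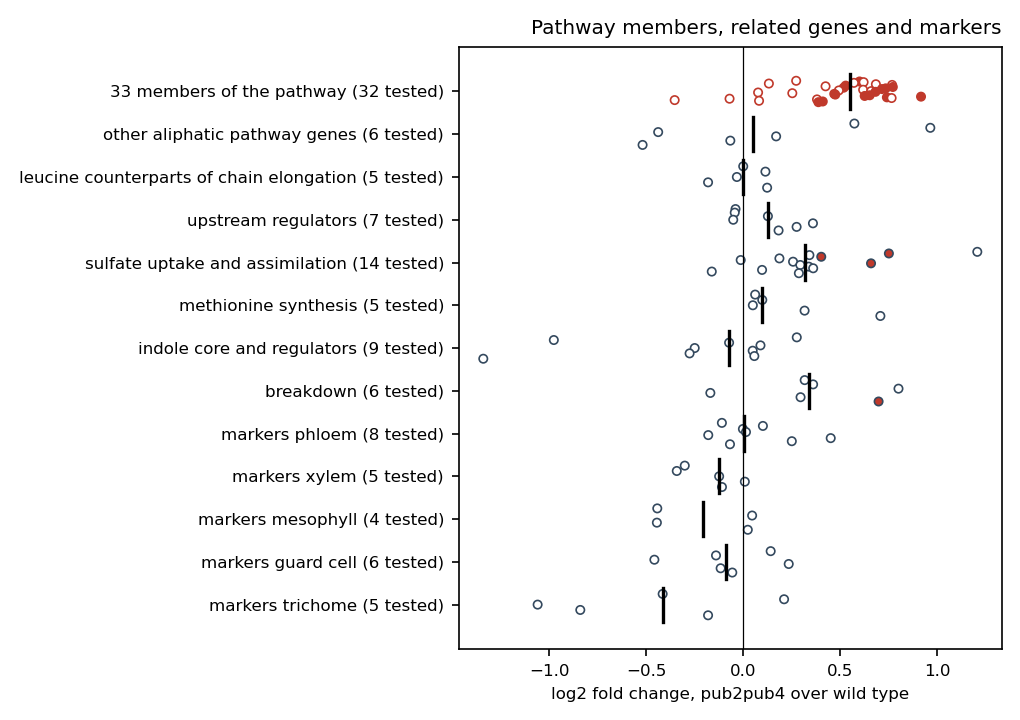
Log2 fold change of pub2pub4 over wild type for the tested pathway genes (top row), related gene lists and cell type markers, 1 point per gene. Filled points are genes called by edgeR, vertical bars are list medians, and the median is 0.55 for the pathway, 0.00 for the leucine counterparts and -0.07 for the indole list.

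Cell type markers of the leaf were read beside these values. Of 29 markers tested edgeR and limma-voom called 0, 2 were higher and 5 lower at an unadjusted p under 0.05, and DESeq2 called 1 higher and 1 lower. The 8 phloem markers summed to 1035 to 1049 CPM in pub2pub4 and 1014 to 1170 CPM in wild type. Within this list 4 log2 fold changes were positive and 4 negative. The 2 markers higher at an unadjusted p were phloem markers, with groups not overlapping. They were SEOR1 (log2 0.45, edgeR adjusted p 0.103) and NAKR1 (log2 0.25, edgeR adjusted p 0.192). DESeq2 called 1 phloem marker higher, and the part of this list in the pathway's values was not tested. The 6 xylem markers summed to 68.6 to 89.9 CPM in pub2pub4 and 83.0 to 99.5 CPM in wild type, and the 4 mesophyll markers to 17477 to 21251 CPM in pub2pub4 and 19397 to 20880 CPM in wild type. RBCS1A made up most of the mesophyll sum. Of the other mesophyll markers, the light-harvesting genes LHCB2.1 and CAB3 had log2 fold changes of -0.45 (groups not overlapping; edgeR adjusted p 0.200) and -0.44 (groups overlapping; edgeR adjusted p 0.293), and the carbonic anhydrase gene CA1 had 0.02. The part of these markers in the pathway's values was not tested. The 6 guard cell markers summed to 89.3 to 131 CPM in pub2pub4 and 111 to 126 CPM in wild type. Among them KAT1 was lower in the mutant, with groups not overlapping (log2 -0.46, edgeR adjusted p 0.0512). DESeq2 called 1 guard cell marker lower. The sums of the phloem, xylem, mesophyll and guard cell lists overlapped between the groups. The 5 trichome markers summed to 18.8 to 23.5 CPM in pub2pub4 and 25.5 to 28.6 CPM in wild type, with no overlap and lower in the mutant, and their part in the pathway's values was not tested. Besides LHCB2.1 and KAT1, the markers lower at an unadjusted edgeR p were XCP2 of the xylem and the trichome genes GL2 and TRY. Their log2 fold changes were -0.34, -0.42 and -1.06 (edgeR adjusted p 0.115, 0.0964 and 0.166), with groups not overlapping.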

How the data were processed

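Messenger RNA of leaves was measured in 6 libraries, 3 of pub2pub4 and 3 of wild type. The authors deposited expected counts per gene, which are estimated reads that need not be whole, with a length per gene. The submitters' processing notes name the genome build TAIR10 and the tools RSEM 2.1.30 and TopHat2 2.1.0. The sources used here give neither strand setting nor annotation release. Totals were 20506882 to 20732799 expected counts.

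Expected counts were rounded, and low genes were removed with filterByExpr (minimum total 15, minimum count 10). The quasi-likelihood model of edgeR 4.0.16 (R 4.3.3) was fitted robustly on TMM-scaled libraries with genotype as its sole factor. The p-values of 19019 genes were adjusted by the Benjamini-Hochberg method. The F statistic and its degrees of freedom gave the SE and 95% interval of each fold change. Levels between genes were compared as CPM per kilobase of deposited length. Alternatives were DESeq2 1.42.0, limma-voom (limma 3.58.1), other scaling, other filters, unrounded counts, a block for the replicate number, and leaving out 1 library at a time. Upstream windows were read from TAIR10.1 with Biopython 1.88 by locus code, since the deposited table holds no coordinates. The longest coding sequence per gene was used for identity.

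Libraries of 1 group differed by more than sampling noise. The members and lists were chosen with earlier results of these data known, so no test over the list was made. Values per library are given for the MYB regulators, every member called and the highest member per kilobase of each step. Other genes are named where called or as a list's extreme. Any further ones were named after their values were seen.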

Additional observations from a re-analysis of the deposited data

How the results depend on the processing

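No member gained or lost a call with limma-voom, median-of-ratios factors, the stricter filter (31 members tested) or unrounded counts, each with 15 called higher. Library totals alone gave 14, without GSTU20 (adjusted p 0.065). No filter gave 17, with BCAT4 (0.044) and CYP83A1 (0.0428) added, and DESeq2 gave 21, with BCAT4, MAM1, IIL1, CYP79F2, CYP83A1 and FMOGS-OX4 added. No member was called lower in any of these or with a library left out. With a library left out the members called higher ranged from 0 to 22 and the genes called from 86 to 1210, against 848 with all libraries, and DESeq2 called 1455 genes. Same-numbered libraries were not taken as pairs, because the sources used here do not state that a shared number marks a shared batch. The correlations of their deviations from the group means were 0.126, 0.0642 and 0.152. Between libraries of different numbers they were -0.176 to 0.0755. The fit that blocks on replicate number called 15 members higher, but BAT5 (adjusted p 0.0629), GSTU20 (0.0541) and FMOGS-OX1 (0.0569) were no longer among them and IIL1 (0.0334), CYP79F2 (0.0464) and CYP83A1 (0.0361) were. With the block 1066 genes were called, of which 45.9% were higher, against 55.9% of the 848, and 5 of the 6 libraries correlated best with their own number. With library totals alone 49.0% of calls were higher. Over all alternatives and single members, 366 values kept direction and call, 60 lost the call, 18 gained one and 3 changed sign, all near 0. With a library left out the log2 fold change ranged from -0.014 (without pub2pub4 1) to 0.15 for GGP1, from -0.060 (without pub2pub4 1) to 0.20 for GTR2 and from -0.13 to 0.024 (without pub2pub4 3) for FMOGS-OX5. The cause was not tested. AOP3 was not detectable at this depth.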
